A study of Rattus norvegicus with 18 samples.

Results

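Ptgs2 encodes cyclooxygenase-2, the inducible enzyme that turns arachidonic acid into the precursor of the prostaglandins, and Nos2 encodes the inducible nitric oxide synthase. The 8 probe sets that the platform annotation gives to these genes, 1 for Ptgs2 and 7 for Nos2, were taken from the 1322 probe sets of an array built for rat neurobiology genes. The series holds 12 arrays of rat cortical type-I astrocytes cultured on a surface coated with beta-amyloid 25-35, a short toxic piece of the amyloid peptide. Of these, 3 each were taken at 12 hours, 1 day, 3 days and 5 days. The 6 controls had grown on laminin and nitrocellulose with no peptide, their labels give no time in culture, and the titles of controls 1 and 2 say astrocytes while their source field reads cerebral cortex, where that of controls 3 to 6 reads type-I astrocytes. The labels give no strain, age or genotype, nor do they tell whether samples came from separate cultures, so a p-value speaks only to the scatter among the arrays at hand, part of which may be technical.

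Resting astrocytes are known to make little of either enzyme. Inflammatory cytokines, bacterial products and injury switch both genes on through transcription factors of the NF-kB, C/EBP and STAT families, and the Ptgs2 messenger is known to decay fast. Ptgs1 encodes the constitutive cyclooxygenase, and Nos1 and Nos3 encode the neuronal and endothelial nitric oxide synthases. In the rat assembly GRCr8, RefSeq places Ptgs2 on chromosome 13 from 64714063 to 64722320 and Nos2 on chromosome 10 from 64313335 to 64349221.

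The 250 bases before the RefSeq start of Ptgs2 are shown because the results turn on the level of this transcript and because the window holds matches to elements through which the gene is known to be induced. They lie at chr13:64713813-64714062 on the plus strand of GRCr8, and the capitals mark a C/EBP match and an E-box.
Ptgs2 promoter: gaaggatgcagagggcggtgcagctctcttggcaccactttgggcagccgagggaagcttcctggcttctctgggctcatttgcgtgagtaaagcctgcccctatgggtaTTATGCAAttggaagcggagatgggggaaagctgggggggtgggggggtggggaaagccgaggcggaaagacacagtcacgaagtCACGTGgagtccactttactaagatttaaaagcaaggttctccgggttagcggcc
The window was searched on both strands for 6 motifs. The C/EBP pattern TTNNGNAA matched once, with its first base 140 bases before the gene start, and 37.2% of the 33469 rat promoter windows of this length hold it. The E-box CACGTG matched once, 55 bases before the start, and 5.59% of windows hold it. The NF-kB pattern, 3 G followed by any 5 bases and 2 C, matched once, 91 bases before the start, and 42.3% of windows hold it. TGACGTCA, TGANTCA and TATAAA were not found in this window, and 1.59%, 6.34% and 12.9% of all windows hold them. The matches do not overlap each other and are descriptions of the letters only.

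Values are the deposited signal, a linear intensity already scaled between arrays, with a 2%-trimmed mean of 502.067 to 502.632 on every array. Signals at or under 11.3 were treated as a floor before log2 was taken, and 1027 probe sets bright enough on at least 3 arrays were tested. Average-linkage clustering split the arrays across group boundaries. Cluster 1 took in every array at 12 hours, the arrays numbered 3 at 1 day and at 3 days, and controls 1 and 2, while cluster 2 took in the remaining 11. The same tree divided into 5 gave groups A to E, and both divisions were the same when the Ptgs2 and Nos2 probe sets were left out. Of 12 astrocyte markers 8 were measured, none at the floor on all arrays, and their summed signal was 38558.2 to 39896.6 at 12 hours, 33637.8 to 36274.2 at 1 day, 25857.4 to 33324.8 at 3 days and 41664.5 to 42339.6 at 5 days, against 24072.3 to 38020.9 in controls.

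Ptgs2 was highest at 12 hours on the peptide and lower at each later time, and at 5 days its signals lay within the range of the controls. Its probe set L25925_s_at had signals of 2486.7, 2250.6 and 2194.7 at 12 hours, against 1407.4, 762.1, 398.1, 171.5, 173.2 and 250.2 in controls 1 to 6. All 3 exposed arrays lay above every control, a separation in this direction that 5.36% of the tested probe sets showed. At 1 day Ptgs2 had 1653.5, 1835 and 917.7, so that array 3 lay below control 1 while the other exposed arrays lay above all controls. At 3 days it had 802.4, 768.5 and 219.8, all inside the control range. At 5 days it had 453.4, 200.9 and 195.2, also inside that range, and below every array at 12 hours.

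**Figure D1:**
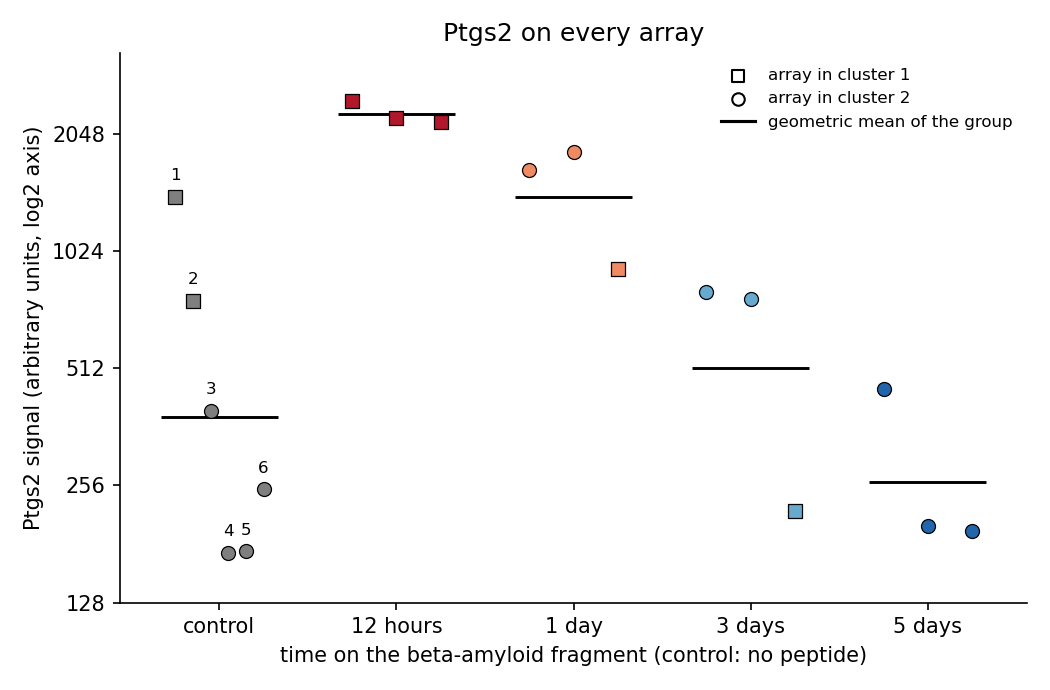
Ptgs2 signal on each of the 18 arrays (log2 axis, arbitrary units) by time on the beta-amyloid fragment, with the geometric mean of each group as a line and the array's cluster as the symbol. The 3 arrays at 12 hours sit between 2194.7 and 2486.7, above all 6 controls, which are numbered and spread from 171.5 to 1407.4.

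By limma over all tested probe sets, Ptgs2 rose at 12 hours, by 2.59 ± 0.62 (SE) on the log2 scale or 6.02-fold (adjusted p = 0.0475), in a comparison where 1.66% of probe sets passed and 0.779% were higher. The mean signal was 2311 ± 155 (SD, n = 3) at 12 hours and 527 ± 485 (SD, n = 6) in controls. The call was narrow: it was kept in 3 of 18 limma fits that left out 1 array (without control 1, control 2 or 3 days array 3) and lost in the other 15, with adjusted p-values of 0.00488 to 0.160. It was also lost after quantile normalization (adjusted p = 0.0699) and cyclic loess (0.0662), with folds of 2.55. At 1 day, where 0.292% of probe sets passed, the log2 fold was 1.88 ± 0.62 (SE) (limma adjusted p = 0.317), and the mean signal was 1469 ± 486 (SD, n = 3). At 3 days the fold was 0.42 ± 0.62 (SE) and at 5 days -0.55 ± 0.62 (SE), with limma adjusted p-values of 0.999 and 0.691, and 0% of probe sets passed at either time. The mean of the 4 times stood 1.08 ± 0.44 (SE) above the controls (limma adjusted p = 0.621), where 0% passed. A test of any difference among the 5 groups gave Ptgs2 a limma adjusted p of 0.0653, where 1.66% of probe sets passed.

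An exact permutation test of the Ptgs2 values alone, two-sided, gave p = 0.0238 at 12 hours, the smallest that 3 arrays against 6 can give. It gave 0.0476 at 1 day, 0.643 at 3 days and 0.571 at 5 days. For 5 days against 12 hours it gave 0.1, the smallest that 3 arrays against 3 can give. Adjusted over these 5 exact comparisons, the values at 12 hours and at 1 day were both 0.119, and that of 5 days against 12 hours was 0.167. In bulk samples a change in the number of cells that make a transcript cannot be told apart from a change in its amount per cell.

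Among the exposed arrays, Ptgs2 fell between 12 hours and 5 days. The fold of 5 days against 12 hours was -3.14 ± 0.71 (SE) on the log2 scale at a limma adjusted p of 0.0234, in a comparison where 16.5% of the tested probe sets passed, 7.5% of the tested passed as lower at 5 days, and 27.1% were lower without overlap. Leaving out 1 array ended this call in 5 of 18 limma fits, those without any array at 12 hours or without array 2 or 3 at 5 days, with folds of -3.54 to -2.93 over all 18. No step between consecutive times passed for Ptgs2, while 0%, 0.0974% and 0.292% of all probe sets passed in the steps to 1, 3 and 5 days. Its arrays were lower without overlap in the step to 1 day, as were 13.7% of probe sets, and in the step to 3 days, as were 4.87%. With the replicate block, 2 probe sets rather than 1 passed in the step to 3 days, and Ptgs2 did not (limma adjusted p = 0.240). The fold was -0.71 for 1 day against 12 hours, -1.45 for 3 days against 1 day and -0.98 for 5 days against 3 days, with limma adjusted p-values of 0.646, 0.588 and 0.550. By geometric mean the order of levels was 12 hours with 2307, 1 day with 1407, 3 days with 514, controls with 383 and 5 days with 261. No neighbours in that order differed past the threshold.

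The controls themselves were spread over 8.21-fold, and both controls whose source field differs were the highest. Controls 1 and 2, titled astrocytes with cerebral cortex in the source field, had Ptgs2 signals of 1407.4 and 762.1, and controls 3 to 6, with type-I astrocytes as the source, had 171.5 to 398.1. These 2 sets of controls fell in different clusters over all tested probe sets. The share of probe sets that separate them was not counted, so their separation in Ptgs2 is not shown to be particular to it. With 2 arrays against 4 no test was made. Without controls 1 and 2, Ptgs2 was higher by 3.31 ± 0.47 (SE) at 12 hours (limma adjusted p = 0.000649), where 31.3% of probe sets passed. At 1 day it was higher by 2.59 ± 0.47 (SE) (limma adjusted p = 0.00844), where 5.74% passed. The mean of the 4 times then stood 1.80 ± 0.36 (SE) above the controls with a limma adjusted p of 0.0187, where 5.26% passed. At 3 days the fold was 1.14 (limma adjusted p = 0.325) and at 5 days 0.16 (limma adjusted p = 0.954), where 0% passed.

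The call at 12 hours also moved with the clusters. Blocking on the 2 clusters gave 2.33 at 12 hours (limma adjusted p = 0.133), and cluster 1 alone gave 1.16 (limma adjusted p = 0.347). Cluster 2 held no array at 12 hours. In cluster 2 alone Ptgs2 was higher by 2.90 at 1 day (limma adjusted p = 0.00224). This fold rests on arrays 1 and 2 at 1 day against controls 3 to 6. Over the alternatives, this one included, 0 to 123 of 1027 probe sets passed at 1 day, beside 3 with all 18 arrays and no block. The count in cluster 2 alone is not given. The Ptgs2 folds in cluster 2 were 1.75 at 3 days (limma adjusted p = 0.146) and 0.16 at 5 days (0.876). Within cluster 1 the single array at 1 day gave -0.17 and the single array at 3 days -2.24 against controls 1 and 2, with limma adjusted p-values of 0.932 and 0.212. These lone arrays borrow the spread of the remaining groups. Blocking on the 2 clusters also gave -2.76 for 5 days against 12 hours (limma adjusted p = 0.180), and these times shared no cluster.

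**Figure D2:**
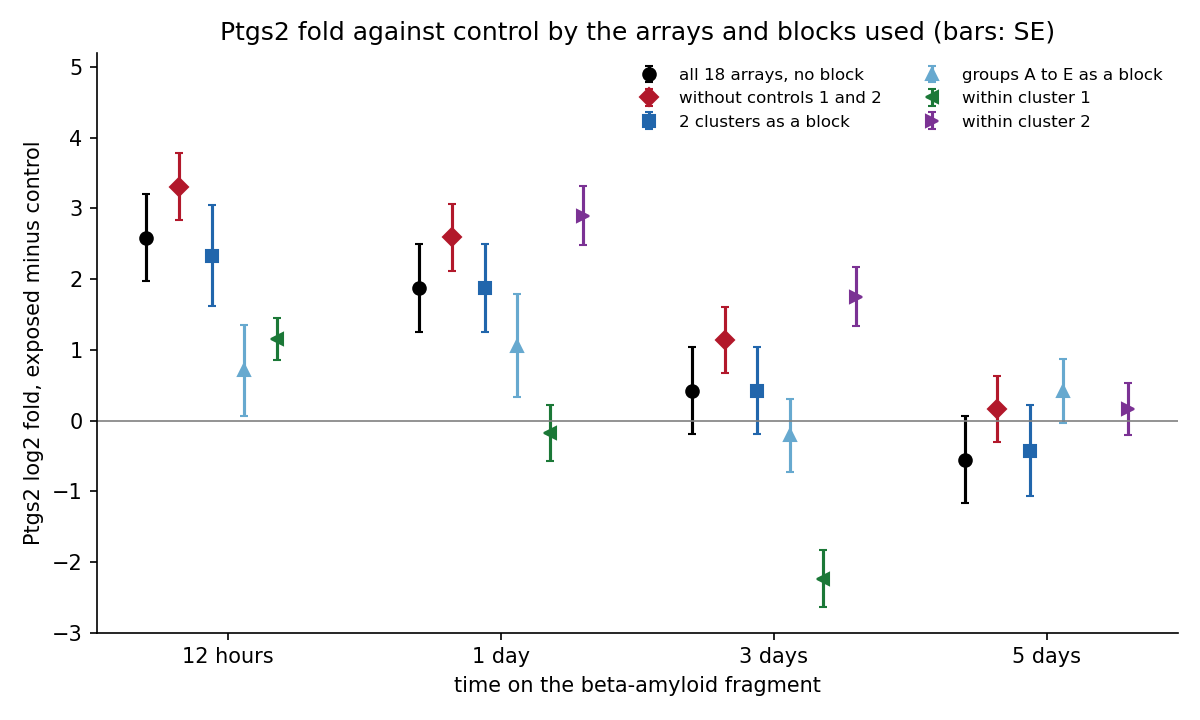
Log2 fold of Ptgs2, exposed minus control, at each time under different choices of arrays and blocks, with SE as bars. At 12 hours the fold is 2.59 with all 18 arrays, 3.31 without controls 1 and 2 and 0.71 with groups A to E as a block, and at 5 days the 5 folds drawn run from -0.55 to 0.42. The replicate block is not drawn.

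Controls had more Ptgs2 where the exposed arrays of the same group, A to E, had more, with group C mixed. Group A held the 3 arrays at 12 hours, with 2194.7 to 2486.7, and control 1, which had the highest control value of 1407.4. Group D held 3 days arrays 1 and 2, with 802.4 and 768.5, and control 3, with 398.1. Group E held the 3 arrays at 5 days, with 195.2 to 453.4, and controls 4 to 6, with 171.5 to 250.2. Group C held 1 day array 3 with 917.7, 3 days array 3 with 219.8 and control 2 with 762.1, and group B held 1 day arrays 1 and 2 and no control. The log2 difference of exposed minus control arrays was 0.71 in group A, -0.76 in group C, 0.98 in group D and 0.42 in group E. With these groups as a block no Ptgs2 fold against the controls passed, and at 12 hours it was 0.71 ± 0.64 (SE) (limma adjusted p = 1), resting on control 1 alone. No label ties a control to an exposure time, and exposure time and array group cannot be told apart in most of these arrays.

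**Figure D3:**
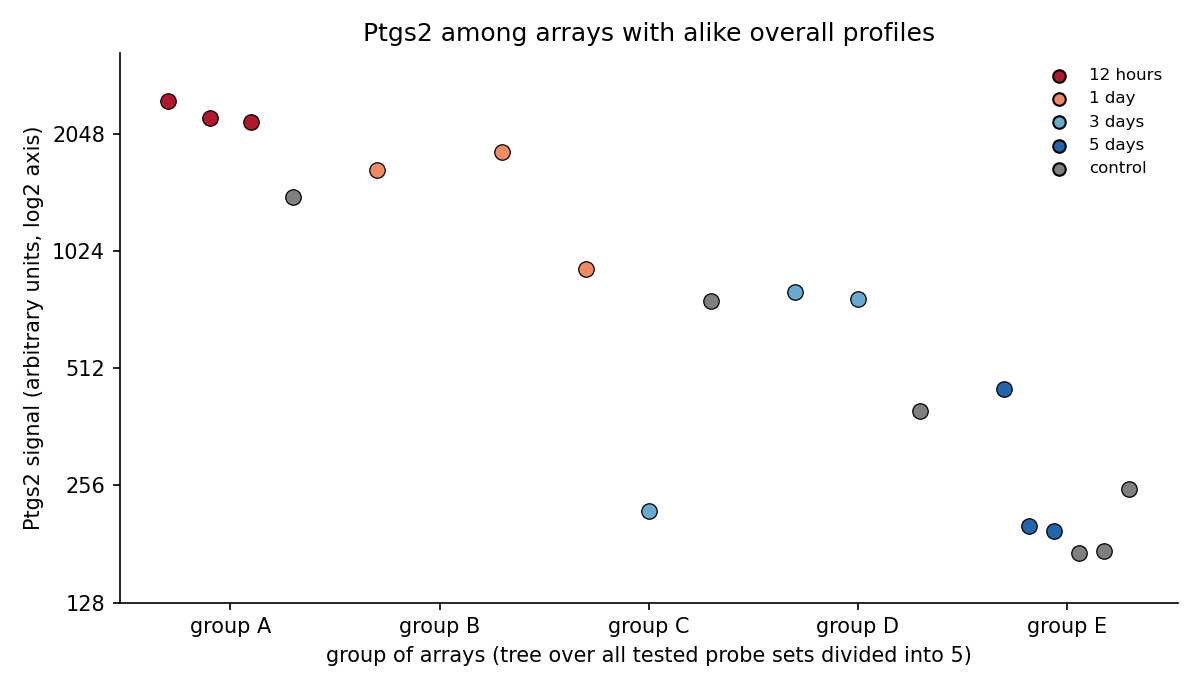
Ptgs2 signal (log2 axis, arbitrary units) on the 18 arrays, sorted by the 5 groups A to E of arrays with alike profiles and coloured by exposure. In groups A and D every exposed array lies above the control of the same group, and in group E exposed arrays at 195.2 to 453.4 overlap controls at 171.5 to 250.2.

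Nos2 did not pass in any comparison on any of its tested probe sets. Of its 7 probe sets 6 were bright enough to be tested, and all 7 are meant to read the same gene, so they are not independent. At 12 hours 2 of the 6 had a fold above 0 and 4 below, from -0.83 to 0.18, with a median of -0.18, which equals the median of all tested probe sets. The ranges were -0.55 to 0.89 at 1 day, -0.39 to 0.46 at 3 days and -0.72 to 0.24 at 5 days, and the smallest limma adjusted p of the 6 against the controls was 0.111 at 12 hours, 0.455 at 1 day, 0.999 at 3 days and 0.469 at 5 days. The smallest unadjusted limma p were 0.0129, 0.0563, 0.124 and 0.0266 at these times, where 29.3%, 11.7%, 4.58% and 9.15% of all tested probe sets had an unadjusted p under 0.05.

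The brightest Nos2 probe set, U16359cds_at, had signals of 389.4, 535 and 507.3 at 12 hours, against 126.6, 552.4, 508.6, 562.9, 818.7 and 401.1 in controls 1 to 6. It had 1003.6, 695.7 and 741.7 at 1 day, 567.6, 614.3 and 610.5 at 3 days, and 627.9, 315.5 and 672 at 5 days. Every group overlapped the controls, and control 1, which had the most Ptgs2 of the controls, had the lowest value of this probe set on any array. Its log2 fold was 0.13 ± 0.43 (SE) at 12 hours, 0.89 ± 0.43 (SE) at 1 day, 0.46 ± 0.43 (SE) at 3 days and 0.24 ± 0.43 (SE) at 5 days, with limma adjusted p-values of 0.854, 0.455, 0.999 and 0.829. The 3 arrays at 1 day lay above those at 12 hours without overlap, as 20.2% of the tested probe sets did, and limma gave that step 0.76 with an adjusted p of 0.463. Those at 3 days lay below those at 1 day without overlap, as 4.87% did, and limma gave that step -0.43 with an adjusted p of 0.874. Without control 1 the folds at 12 hours and 5 days were -0.23 and -0.12.

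The probe set S71597_s_at had the lowest fold of the 6 tested at each time. It had 51.5, 74.2 and 79.2 at 12 hours, against 97.3, 165.6, 86.7, 109.7, 113.3 and 165.2 in controls 1 to 6, so that all exposed arrays lay below every control, as did 9.83% of the tested probe sets. It had 55.8, 96.7 and 100.8 at 1 day, 60.3, 98.3 and 128.1 at 3 days, and 60.7, 66.9 and 93 at 5 days, all of which overlapped the controls. Its folds were -0.83 ± 0.29 (SE), -0.55 ± 0.29 (SE), -0.39 ± 0.29 (SE) and -0.72 ± 0.29 (SE) at the 4 times, with limma adjusted p-values of 0.111, 0.525, 0.999 and 0.469. The mean of the 4 times stood at -0.62 ± 0.21 (SE) against the controls (limma adjusted p = 0.621).

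The other Nos2 probe sets were dim. AF006619_s_at ran from 40.2 to 107.4 over the 12 exposed arrays, against 43 to 89.4 in controls. U48829_s_at ran from 58.3 to 136.5 on exposed arrays, against 71.5 to 115.3 in controls. Of the tested probe sets U03699complete_seq_at had the narrowest spread, from 36.3 to 63.8 on exposed arrays and 44.7 to 65.7 in controls. D83661_s_at ran from 18.8 to 148.7 on exposed arrays, against 24.8 to 104.7 in controls, with 148.7 on 1 day array 3 and 29.3 and 18.8 on the other arrays at 1 day. D44591_s_at was too dim to be tested, with 2.7 to 10.5 on exposed arrays, all under the floor of 11.3, against 5.9 to 17.4 in controls, of which 4 of 6 were above the floor. The probe sets disagree on the direction at every time, with 2 of the 6 tested above 0 and 4 below in each comparison with the controls.

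**Figure D4:**
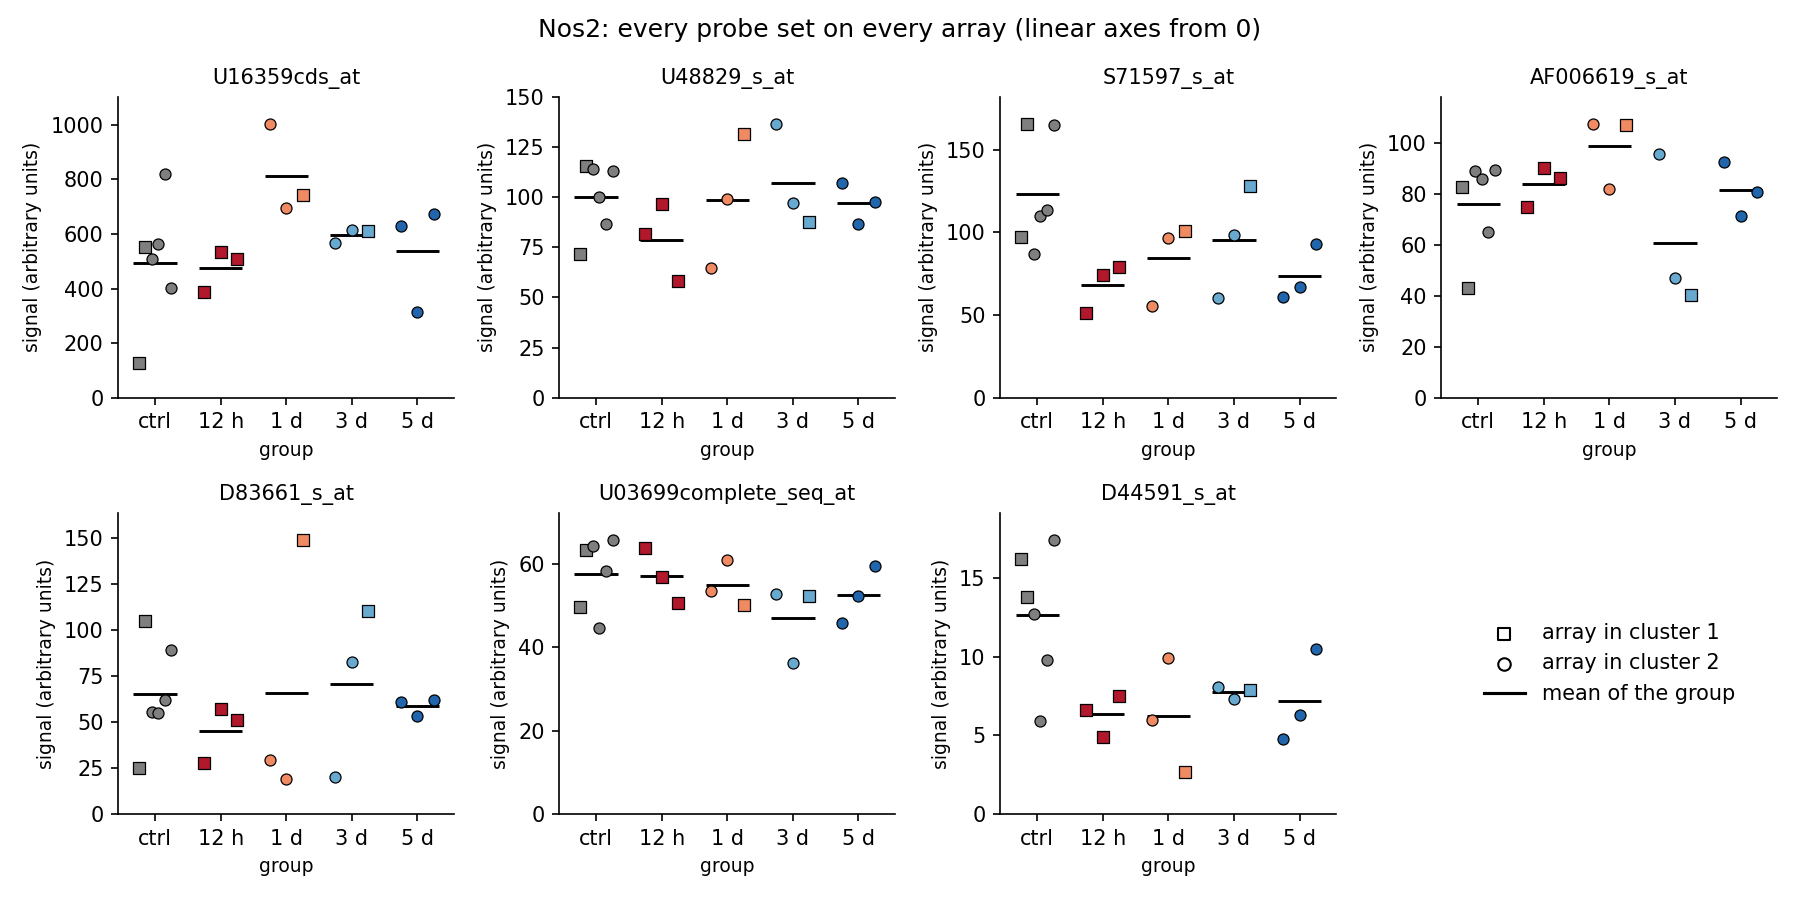
Signals of the 7 Nos2 probe sets on every array (linear axes from 0, arbitrary units) by group, with the group mean as a line and the array's cluster as the symbol. Exposed arrays overlap the controls in every panel except at 12 hours for S71597_s_at, where 51.5 to 79.2 lie below the lowest control at 86.7.

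The relation between the enzymes was taken within each cluster, for 6 Nos2 probe sets in both clusters, 12 relations in all. On S71597_s_at Pearson's r with Ptgs2 was -0.76 (exact permutation p = 0.0429, adjusted 0.257) and Spearman's rho -0.96 (exact permutation p = 0.00278, adjusted 0.0333) over the 7 arrays of cluster 1. Without the 2 arrays farthest from the Ptgs2 median, r was -0.82. Over the 11 arrays of cluster 2 it had r = -0.44 (permutation p = 0.175, adjusted 0.350) and rho = -0.53 (permutation p = 0.101, adjusted 0.333). On U16359cds_at r was -0.29 in cluster 1 and 0.46 in cluster 2, and none of the other 11 relations passed after adjustment by either measure. The arrays of a cluster differ in exposure time, so these relations hold the time course too.

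Among 619 other genes, those with the pattern most like Ptgs2 were Mif, Mapk6, Map2k1, Nptxr and Nes. They were ranked by the lower of the Pearson correlations of log2 signal within the 7 arrays of cluster 1 and the 11 of cluster 2. Each gene was taken on the probe set that ranked best, and each of these 5 had 2 or 3 tested probe sets. The values of their other probe sets are not given. Each cluster mixes exposure times and controls, so r reflects the time course as well, and no p is given. Mif, which encodes the cytokine macrophage migration inhibitory factor, had r = 0.94 and 0.93. Its signals were 9644.7 to 10309.2 at 12 hours, 7943 to 9651.9 at 1 day, 6991.6 to 7400.5 at 3 days and 5771.9 to 6052.7 at 5 days, against 6010.4 to 9140.6 in controls. Mapk6, an atypical MAP kinase, had r = 0.95 and 0.88, and its signals were 2843.4 to 3187.7 at 12 hours and 970.2 to 1553.9 at 5 days, against 613.7 to 2811.2 in controls. Both, like Ptgs2, had their highest exposed signals at 12 hours and their lowest at 5 days.

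Map2k1, the kinase that activates the MAP kinases Erk1 and Erk2, had r = 0.87 and 0.90, and Nptxr, a neuronal pentraxin receptor, had 0.95 and 0.87. Nes, which encodes the intermediate filament nestin, had 0.91 and 0.85. A high r within clusters did not mean the same course over time, since Nes had 3871.3 to 4082.2 at 12 hours and 7778.2 and 7893.1 on the brighter arrays at 1 day. Ranked by Spearman's rho, 3 of these 5 genes stayed among the first 5. For the Nos2 probe set U16359cds_at the highest values were lower, from 0.54 to 0.62, for Creb1, Dynll1, Prkca, Ghr and Ngfr. By Spearman's rho 1 of the 5 genes stayed, Ngfr, but on its other probe set. The Ngfr probe set ranked by r, U25650_f_at, had rho of 0.07 in cluster 1 and 0.34 in cluster 2.

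Of 27 listed genes of prostaglandin synthesis and response 4 were measured and tested, and none passed at any time, where 1.66%, 0.292%, 0% and 0% of all tested probe sets passed at 12 hours, 1 day, 3 days and 5 days. The 4 genes had a median fold of -0.56 at 12 hours, -0.08 at 1 day, 0.17 at 3 days and 0.24 at 5 days, beside -0.18, -0.05, 0.02 and -0.14 over all tested probe sets. The constitutive cyclooxygenase Ptgs1 had 90, 57.5 and 66.1 at 12 hours, against 112.3, 126.8, 627, 87, 420.8 and 423.3 in controls 1 to 6. Its fold at 12 hours was -1.70 ± 0.78 (SE) (limma adjusted p = 0.160), and -0.35 with the 2 clusters as a block (limma adjusted p = 0.742). Ptgs1 ran from 57.5 to 126.8 in cluster 1 and from 87 to 959.2 in cluster 2, and its 3 arrays at 12 hours all lay in cluster 1. The receptor genes Ptgfr, for prostaglandin F2-alpha, and Ptger3, for prostaglandin E2, had folds of -0.35 and -0.56 at 12 hours with limma adjusted p-values of 0.169 and 0.217 on their brightest probe sets. The other tested Ptger3 probe set, D14869_s_at, went the other way at 12 hours, with 0.42 (limma adjusted p = 0.509).

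Of 27 genes of nitric oxide synthesis, targets and oxidant defence 8 were measured and 5 tested, and none passed at any time, where 1.66%, 0.292%, 0% and 0% of all tested probe sets passed at 12 hours, 1 day, 3 days and 5 days. The other nitric oxide synthases were at the dim end of the array. Nos1 had 21.5 to 34.3 on exposed arrays, against 21.6 to 33.7 in controls, on U67309_at, and Nos3 had 3.3 to 9.9, against 4.7 to 10.3 in controls, all under the floor. The mitochondrial superoxide dismutase gene Sod2, also an inflammation-responsive gene, had a fold of 1.13 at 12 hours with a limma adjusted p of 0.156. Its signals were 1583.1 to 1711.1 at 12 hours, against 304.1 to 2648 in controls, with the highest value again in control 1. Hmox1, the inducible heme oxygenase, had 0.87 on rc_AI179610_at at 3 days and the cytosolic Sod1 had -0.40 on M21060_s_at at 1 day, with limma adjusted p-values of 0.877 and 0.382. The other Sod1 probe sets, M25157mRNA_i_at and Y00404_s_at, had -0.15 and -0.013 at 1 day.

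Of 47 inducers and shared targets 31 were measured and 26 tested, and 1 rose at 12 hours, where 0.779% of all tested probe sets passed as higher. The chemokine gene Ccl5, whose product recruits leukocytes, rose by 5.32 ± 1.11 (SE) (limma adjusted p = 0.0382), with 1480, 1250.5 and 1252.7 at 12 hours, against 1496.3 in control 1 and 11.4 to 24.2 in controls 2 to 6. With groups A to E as a block its fold was -0.18. Among the 26 genes 10 had an unadjusted limma p under 0.05 at 12 hours, where 29.3% of all tested probe sets did. Their median fold was 0.49, against -0.18 over all tested probe sets, and at 1, 3 and 5 days the median was -0.11, -0.27 and -0.25. Jak2, which carries cytokine receptor signals, passed at 12 hours on AJ000557cds_s_at (limma adjusted p = 0.0439) and on neither of its other probe sets, U13396_g_at (0.133) and U13396_at (0.980). The list was chosen with results of these arrays known, so its count is not independent evidence of a direction.

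**Figure D5:**
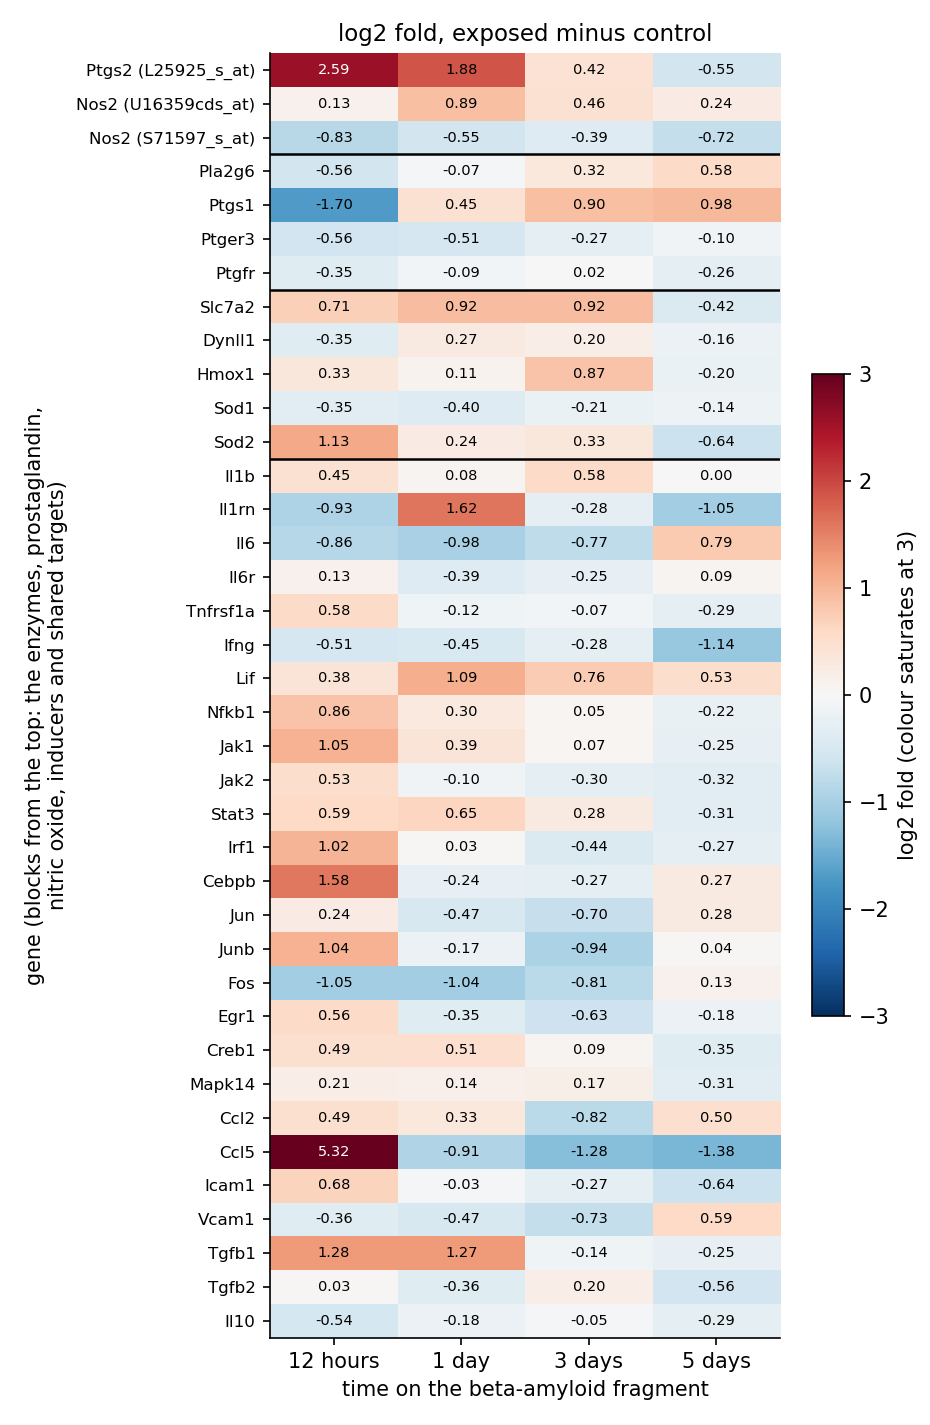
Log2 folds, exposed minus control, at 12 hours, 1 day, 3 days and 5 days for Ptgs2, both described Nos2 probe sets and the tested genes of the 3 lists, each on its brightest probe set. Ptgs2 at 2.59 and Ccl5 at 5.32 are the only values that passed by limma, both at 12 hours.

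Among the factors known to act on both promoters, Cebpb had a fold of 1.58 at 12 hours with a limma adjusted p of 0.103. Nfkb1 had 0.86 with 0.111, Irf1 had 1.02 with 0.109 and Stat3 had 0.59 with 0.198. Fos, a subunit of the factor AP-1, went the other way, with -1.05 to -1.39 on its 3 probe sets and limma adjusted p-values of 0.124 to 0.155. Its partners Jun and Junb had 0.24 with 0.496 and 1.04 with 0.109. Cebpb, which encodes the factor C/EBP-beta, had 3620, 3985 and 3731.8 at 12 hours on its brighter probe set, against 3583.9, 2078.9, 488.6, 872.5, 1193.4 and 1087.8 in controls 1 to 6, so that controls 1 and 2 were high in Cebpb as in Ptgs2. The cytokine gene Il1b, a strong inducer of both enzymes, had 0.45 at 12 hours with a limma adjusted p of 0.687, and Tnf was too dim to be tested, with 10.6 to 25.6 on exposed arrays, against 12.2 to 19.1 in controls.

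Markers of other cell types were set beside the Ptgs2 result at 12 hours. Of 15 microglia and macrophage genes 1 was measured, Itgam, with 32.1 to 40.1 at 12 hours, against 37.3 to 65.8 in controls. The summed signal of 8 neuronal genes was 2934.6 to 3082 at 12 hours, against 2839.7 to 4630.8 in controls, and of 5 oligodendrocyte genes 1624.9 to 1818.5, against 1095 to 1917.9. Of 12 fibroblast, meningeal and vascular genes 2 were measured, and their sum was 3562.4 to 3748.6 at 12 hours, against 644.1 to 8633.3 in controls. At each time the sums of neuronal and oligodendrocyte genes overlapped those of the controls, and no marker measured in these lists was at the floor on all arrays. The part of these cells in the Ptgs2 values was not tested.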

How the data were processed

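The authors deposited a linear intensity, named signal here, for 1322 probe sets on 18 arrays. How it was computed and scaled is not given in the sources used here. No detection calls were given, and the number of arrays limits the precision. Genes were named from the platform annotation, and both gene identifiers matched the RefSeq table (GRCr8). Without the 59 control probe sets, signals under the 10th percentile (11.3) were raised to it, log2 was taken, and the 1027 probe sets above the 30th percentile (44.9) on at least 3 arrays went into a single limma model (version 3.58.1, under R 4.3.3) of 5 groups with 13 residual degrees of freedom. Tests were two-sided, with Benjamini-Hochberg adjustment over all tested probe sets within each comparison and a threshold of 0.05. Folds of dim probe sets are understated by the floor. The distance for average-linkage clustering was 1 minus Pearson's r over tested probe sets.

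The members and lists were chosen with earlier results of these data known. By rule every Ptgs2 and Nos2 probe set was described, with the 5 most similar genes of each, and of each list up to 4 genes that passed or else the 3 with the smallest p. Jak2, Cebpb, Fos, Jun, Junb, Nfkb1, Irf1, Stat3, Il1b, Nos1, Nos3 and Tnf were added after their values were seen. Same-numbered arrays deviated together only between 3 days and 1 day (r = 0.39, 0.43 and 0.68), which is a pairing from the data, not from the labels. The fit was tested on simulated data. Alternatives covered scaling, floor, filter, variance model, arrays left out and blocks. The replicate block fits a level to each array number. Controls 4 to 6 share their numbers with no exposed array, so this block takes up their values. Its folds against control at every time rest on controls 1 to 3, with Ptgs2 signals of 1407.4, 762.1 and 398.1. Controls 4 to 6, with 171.5 to 250.2, do not enter them. These folds therefore differ from the main ones in the controls used.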

Additional observations from a re-analysis of the deposited data

Results flagged for a closer look

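The exposed arrays differed in Ptgs2 between times. The test of 5 days against 12 hours gave -3.14 on the log2 scale (limma adjusted p = 0.0234). In this comparison 16.5% of the tested probe sets passed in either direction. Ptgs2 was lower on 3 of 3 arrays at 5 days than on every array at 12 hours, as were 27.1% of the tested probe sets. These times shared no array cluster, and the adjusted p was 0.180 with the 2 clusters as a block and 0.997, at -0.29, with the 5 clusters as a block. The controls carry no time in culture, so time on the peptide, time in culture and array group cannot be told apart. In the 6 controls no Ptgs2 or Nos2 probe set had a single end value that stood far enough from the others on the log2 scale to be set apart. The nearest was U16359cds_at, where control 1 had a signal of 126.6. There the gap took 0.618 of the log2 range against a critical value of 0.625. This rule takes 1 end value at a time, so it could not set controls 1 and 2 apart together in Ptgs2.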

How the results depend on the processing

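The Ptgs2 fold at 12 hours against control stayed above 0 under all 13 alternatives with that comparison and all 18 fits that left out 1 array, but its call did not. Limma adjusted p-values passed the threshold in 6 of the 13 and in 3 of the 18, those without control 1, control 2 or 3 days array 3. Over all 18 the folds were 2.36 to 2.96 and the adjusted p-values 0.00488 to 0.160. It missed the threshold with 2.55 after quantile normalization and after cyclic loess, 2.59 with only the groups compared, 1.62 with the replicate block, 2.33 with the 2 clusters and 0.71 with the 5 clusters as a block, and 1.16 within cluster 1. At 1 day the fold passed with 2.59 without controls 1 and 2 and 2.90 within cluster 2, turned to -0.17 within cluster 1, was lower without passing at 0.90 with the replicate block and 1.06 with the 5 clusters, and was 1.64 to 2.25 with 1 array left out. At 3 days it turned to -0.55 with the replicate block, -0.21 with the 5 clusters and -2.24 within cluster 1. At 5 days it turned to 0.16 without controls 1 and 2 and within cluster 2 and 0.42 with the 5 clusters. It passed at -1.53 against controls 1 to 3 with the replicate block (limma adjusted p 0.0435). Over the alternatives, this one included, 0 to 61 of 1027 probe sets passed at 5 days, beside 0 with all 18 arrays and no block. The mean of the 4 times passed with 1.80 without controls 1 and 2, and was 0.109 with the replicate block and 0.50 with the 5 clusters. With the 5 clusters 1 day against 12 hours was 0.35 and 5 days against 3 days 0.63. For 5 days against 12 hours the call was lost with -2.76 and -0.29 with the 2 and the 5 clusters as a block, and in 5 of 18 fits with 1 array left out, any at 12 hours or 5 days array 2 or 3, with folds of -3.54 to -2.93. The cause was not tested in any of these.

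Leaving out 1 array gave Ptgs2 folds of 0.10 to 1.03 at 3 days, -0.95 to -0.18 at 5 days, 0.85 to 1.46 for the mean of the times, -0.91 to -0.41 for 1 day against 12 hours, -1.78 to -0.84 for 3 days against 1 day and -1.59 to -0.66 for 5 days against 3 days, none past the threshold. No Nos2 probe set passed by limma in any of 279 counts over the comparisons and alternatives. With 1 array left out the U16359cds_at fold ran from -0.23 to 0.31 at 12 hours and from -0.12 to 0.59 at 5 days, the lowest without control 1. It was -0.23 at 12 hours and -0.12 at 5 days without controls 1 and 2, and at 5 days -0.12 within cluster 2 and -0.16 with the 5 clusters. The S71597_s_at fold at 3 days was 0.013 within cluster 1. The number of probe sets called moved by more than 1.5 times. At 12 hours it was 17 and ran from 0 to 321, the highest without controls 1 and 2, at 1 day 3 and 0 to 123, at 3 days 0 and 0 to 6, at 5 days 0 and 0 to 61, for the mean of the times 0 and 0 to 54, and for 5 days against 12 hours 169 and 0 to 392. For 1 day against 12 hours it was 0 and ran to 24, for 3 days against 1 day 1 and 38, and for 5 days against 3 days 3 and 24. Same-numbered arrays deviated together, with all 3 correlations over 0.1, in 1 of 10 pairs of groups, 3 days and 1 day. For that pair the replicate block left the Ptgs2 fold at -1.45 (limma adjusted p 0.240) and called 2 probe sets, against 1 without it. In the other 9 pairs the arrays share only a number. Scalings shifted the Ptgs2 fold at 12 hours from 2.55 to 2.78. No tested Nos2 probe set had a signal at or under the floor on any array, while D44591_s_at, which was not tested, did. Most of the tested ones were dim, which limits what can be seen of Nos2.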
